A study of Mus musculus with 6 samples.

Results

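The T and NK lymphocyte marker genes described here are 9 genes taken by symbol: *Cd4*, *Cd3e*, *Cd3g*, *Cd247*, *Lck*, *Zap70*, *Il7r*, *Il2rb* and *Nkg7*. A gene counted as listed where the deposited expression table held a row with exactly that symbol, and for the other gene lists below a row under an older symbol was accepted too, which was needed only for *Adgre1*, listed as *Emr1*. The table listed 8 of the 9 members among 14015 genes with a symbol, and *Cd3g* was not listed. The measurements came from bulk sequencing of poly(A) RNA from injured mouse quadriceps, taken 7 days after volumetric muscle loss, a surgery that removes a piece of the muscle belly. There were 3 wild-type (WT) mice and 3 mice of the GATA-1 mutant group, the ΔdblGATA line, which carries a deletion in the regulatory DNA of *Gata1* and lacks eosinophils. Every mouse had the control injury without an implant, and per the study's methods both legs were injured and the defect was filled with saline. The methods describe the WT mice as adult female C57BL/6 animals and give no separate age for the mutant. The deletion is carried in the germline, so it is present in every cell of the mutant mice, lymphocytes included. Whole injured muscle was sequenced, so lymphocyte RNA was a part of a tissue extract and was not measured in sorted cells.

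T cells recognise antigen through a receptor whose variable chains carry no signalling tail of their own, and the CD3 chains and the zeta chain pass the signal inward. The kinase LCK, held at the co-receptors CD4 and CD8, phosphorylates these chains, and the kinase ZAP-70 then docks on them and phosphorylates adaptor proteins downstream. Interleukin receptors keep T and NK cells alive, and NK cells and killer T cells carry granules with cytotoxic proteins. In injured muscle, helper T cells and regulatory T cells are known to act beside macrophages during repair.

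The value used for each gene was the authors' mean of log2 CPM, read counts scaled to the size of each library, over all 6 mice, WT and ΔdblGATA together. No value per mouse was used, so no standard deviation can be given, the depth per sample is unknown, and the genotypes were not compared for any member. A percentile below is the percent of listed genes with a lower value on the scale named. Because a long transcript yields more fragments than a short one at the same number of molecules, genes were set in order of level per length, as mean log2 CPM minus log2 of the length in kilobases (kb) of the longest coding transcript. Mean log2 CPM values that stand alone are not corrected for length and give no order between genes, and percentiles are given on both scales. In a bulk sample, fewer cells of a type and less RNA per cell cannot be told apart. The labelled tissue was checked against 8 genes of muscle fibres, which were all listed, from *Ttn* at a log2 level per kb of 5.92 to *Acta1* at 13.77.

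Of the CD3 genes, 2 members and *Cd3d* of the pathway list lie close together on mouse chromosome 9. *Cd3g* was not listed, and its neighbours *Cd3e* and *Cd3d* were. *Cd3g* and *Cd3d* are transcribed away from each other from starts 1355 bases apart, and the facing ends of *Cd3d* and *Cd3e* are separated by 11401 bases. Their promoter windows (RefSeq, GRCm38.p6, 300 bases around the transcription start, most of them upstream) are shown 5′ to 3′ on each gene's own strand so that these neighbours can be compared. Capitals mark the ETS motif AGGAAG or its reverse complement CTTCCT, and in *Cd3g* the E-box motif CAGCTG. The windows lie at chr9:45009562-45009861 on the minus strand for *Cd3e*, chr9:44980382-44980681 on the minus strand for *Cd3g* and chr9:44981536-44981835 on the plus strand for *Cd3d*.
Cd3e: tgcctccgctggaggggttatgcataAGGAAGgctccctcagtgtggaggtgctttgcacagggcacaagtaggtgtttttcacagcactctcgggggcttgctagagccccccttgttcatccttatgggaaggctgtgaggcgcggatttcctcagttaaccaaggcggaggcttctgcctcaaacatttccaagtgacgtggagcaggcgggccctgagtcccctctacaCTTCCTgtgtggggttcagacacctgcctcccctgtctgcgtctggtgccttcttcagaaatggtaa
Cd3g: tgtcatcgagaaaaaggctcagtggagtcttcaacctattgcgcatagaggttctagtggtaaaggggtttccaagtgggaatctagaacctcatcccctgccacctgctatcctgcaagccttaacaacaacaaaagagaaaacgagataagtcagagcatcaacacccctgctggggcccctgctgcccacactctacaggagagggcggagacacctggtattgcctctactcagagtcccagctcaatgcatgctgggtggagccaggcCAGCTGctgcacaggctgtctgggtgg
Cd3d: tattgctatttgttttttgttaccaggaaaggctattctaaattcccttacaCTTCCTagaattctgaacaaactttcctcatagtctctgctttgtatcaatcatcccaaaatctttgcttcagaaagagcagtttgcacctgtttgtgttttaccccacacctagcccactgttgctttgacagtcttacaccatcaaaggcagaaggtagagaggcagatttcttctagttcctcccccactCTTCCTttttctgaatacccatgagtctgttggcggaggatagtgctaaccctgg
The windows of *Cd3e* and *Cd3d* each held the ETS letters at 2 places, and that of *Cd3g* held none but 1 E-box match. Whether these letters bear on which gene was listed was not tested. CpG dinucleotides numbered 8 in the *Cd3e* window, 4 in that of *Cd3g* and 1 in that of *Cd3d*, beside a median of 7 over all windows of the table.

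Windows were found for 7 members, 10 windows in all because *Lck* and *Zap70* have more than one start. Motifs were searched on both strands, and none of the motifs contains another. The ETS motif AGGAAG was in 8 of the 10 windows, which belong to 6 members, beside 35.4% of all 32851 windows. The RUNX motif TGTGGT was in 4 of the 10 windows, 1 each for *Lck*, *Zap70*, *Il7r* and *Nkg7*, beside 16.8% of all windows. The E-box CAGCTG was only in the *Cd3g* window among the 10, beside 16.3% of all windows. GC content ranged from 43.7% to 58.3% over the members' windows, with a median of 52.7% over all windows, and 7 of the 10 had no more CpG dinucleotides than the median window. These matches describe letters in short windows and were not tested against the expression values.

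*Cd4*, the co-receptor of helper T cells that binds MHC class II, had the highest level per kb of the listed members. The gene (chromosome 6, 124864692 to 124888221, minus strand, GRCm38, as are all coordinates below) had a mean log2 CPM of 1.73, a geometric mean of 3.32 CPM, with 20.7% of listed genes lower. Its level per kb was 0.09 on the log2 scale, at the 20.5 percentile. *Cd8a*, a chain of the co-receptor of killer T cells, had a mean log2 CPM of -0.72, and its partner *Cd8b1* was not listed. Per kb, *Cd4* was 2.46 log2 units above *Cd8a*, and 1.56 with the coding length. Macrophages and dendritic cells can also carry *Cd4* transcripts, so this gene alone does not mark T cells.

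*Cd3e*, an invariant chain without which the T cell receptor does not reach the surface, had a mean below 1 CPM. *Cd3e* (chromosome 9, 44998740 to 45009627, minus strand) had a mean log2 CPM of -0.42, a geometric mean of 0.746 CPM, with 5.77% of listed genes lower. Per kb its log2 level was -0.97, at the 11.8 percentile. *Cd247*, the zeta chain that carries most of the receptor's signalling motifs and also serves NK cell receptors, had a mean log2 CPM of 0.72 (1.64 CPM, 13.2 percentile). The per-kb log2 level of *Cd247* (chromosome 1, 165788681 to 165877277, plus strand) was -0.85, at the 12.6 percentile. It was 0.12 above that of *Cd3e* with the longest transcript, 0.83 with the median length of the coding transcripts and 1.01 with the coding length. *Cd3g* (chromosome 9, 44969572 to 44980431, minus strand), which encodes the gamma chain paired with CD3 epsilon, has no value here. A gene may be missing from the table because it did not pass the authors' filter or because their transcript index did not hold it under that symbol, and these cannot be told apart.

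*Cd3d*, the delta chain, had a mean log2 CPM of 1.49 (2.81 CPM) and the highest level per kb of the listed CD3 genes. Its log2 level per kb was 0.80, at the 27.9 percentile, and exceeded that of *Cd3e* by 1.77, a 3.41-fold difference, and that of *Cd247* by 1.65, or by 1.03 with the coding length. CD3 delta and CD3 epsilon are built into the receptor as a pair, and the measured levels of their transcripts per length were not equal. The difference between *Cd3d* and *Cd3e* was 2.53 log2 units when the median length of each gene's coding transcripts was used and 2.04 with the coding length. With each of these 3 lengths, *Cd3d* lay above all 8 listed members.

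The *Cd247* value carries a limit that the other members do not share to that degree. Of the 31-base words in its longest transcript, 85.4% are also found, in either orientation, in the transcripts of another gene, and 79.4% are found in *Pou2f1*, which lies on the opposite strand. *Pou2f1*, which encodes a widely expressed transcription factor, had a mean log2 CPM of 3.94, at the 48.2 percentile. Whether the libraries or the read assignment used strand is not given in the sources used here, and without strand the reads of such a pair cannot be told apart. *Cd3e* shared 7.40% of its words, with *Gm48719* on the opposite strand, and the other 6 listed members shared less than 3% each. The part of shared sequence in the values was not tested.

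The kinases of the receptor differed in their place among the members. *Zap70* (chromosome 1, 36761798 to 36782818, plus strand) had a mean log2 CPM of 0.90 (1.87 CPM, 14.4 percentile) and a log2 level per kb of -0.27 (17.1 percentile). *Lck* (chromosome 4, 129548344 to 129573641, minus strand) had a mean log2 CPM of -0.11 (0.928 CPM, 7.82 percentile) and a log2 level per kb of -1.24 (10.1 percentile). The per-kb level of *Zap70* was 0.97 log2 units above that of *Lck* with the longest transcript, 1.64 with the median length and 0.76 with the coding length. *Lck* was the lowest listed member per length with each of the 3 lengths, whereas *Zap70* ranged from the first place by median transcript length to the seventh by coding length.

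Both interleukin receptor chains were listed. *Il7r* (chromosome 15, 9505788 to 9530176, minus strand), the receptor chain for the survival factor interleukin 7 on naive and memory T cells, had a mean log2 CPM of 1.27 (2.42 CPM, 17.1 percentile). Per kb its log2 level was -0.55, at the 14.7 percentile. *Il2rb* (chromosome 15, 78479256 to 78495271, minus strand), the chain through which NK cells and memory T cells respond to interleukin 2 and interleukin 15, had a mean log2 CPM of 0.98 (1.97 CPM, 14.9 percentile). The longest transcript of *Il2rb* has 4194 bases, and its log2 level per kb of -1.09 (10.9 percentile) was at rank 7 of the 8. *Il2rg*, the common chain that pairs with both, is used by leukocytes at large and had a mean log2 CPM of 3.30. Its log2 level per kb was 3.65 above that of *Il2rb* and 3.11 above that of *Il7r*, and 2.86 and 2.34 above them with the coding length.

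*Nkg7* encodes a protein of cytotoxic granules in NK cells and killer T cells, and it too had a mean below 1 CPM. At a mean log2 CPM of -0.81 (0.571 CPM), *Nkg7* (chromosome 7, 43437073 to 43438249, plus strand) had 3.37% of listed genes below it. Its transcript is the shortest of the listed members at 881 bases, and per kb its log2 level of -0.63 (14.1 percentile) was at rank 4 of the 8.

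The listed members all lay below the lower quartile of the table, both by mean log2 CPM (lower quartile 2.23, median 4.03) and per kb (lower quartile 0.51, median 2.26). Their median percentile was 13.8 by mean log2 CPM and 13.4 per kb. Means below 0, that is below 1 CPM, were found for 3 of the 8 (37.5%), *Lck*, *Cd3e* and *Nkg7*, beside 1198 genes of the whole table (8.55%). The distance from the highest to the lowest member per kb was 1.33 log2 units, a 2.51-fold range from *Cd4* to *Lck*. It was 1.64 (3.12-fold, *Zap70* to *Lck*) with the median transcript length and 2.16 (4.47-fold, *Cd247* to *Lck*) with the coding length. With no spread over mice, whether neighbours in this order differ could not be determined.

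**Figure D1:**
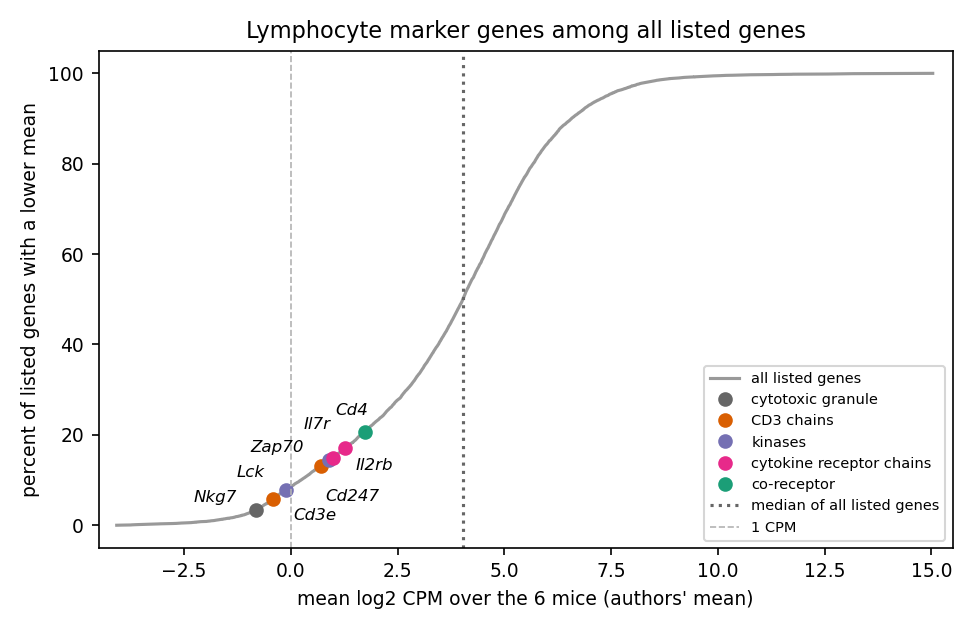
The 8 listed members are placed on the curve of all 14015 listed genes, with the authors' mean log2 CPM over the 6 mice on the horizontal axis and the percent of listed genes with a lower mean on the vertical axis. Every member lies left of the dotted median at 4.03, and *Lck*, *Cd3e* and *Nkg7* lie left of the dashed line at 1 CPM.

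The authors' stated filter bears on these 3 means. It kept a gene where the CPM was above 1 in at least 3 samples, and for a mean log2 CPM below 0 at least 1 of the other mice must then lie at or below 2 times the mean. This puts the lowest mouse at or below 0.860 CPM for *Lck*, 0.557 CPM for *Cd3e* and 0.326 CPM for *Nkg7*. These bounds hold only if the filter was applied to the values averaged, and normalization followed it. By the same reasoning, the lowest mean log2 CPM of the whole table, -4.08, would put its lowest mouse at or below -8.15. Whether any mouse was that low could not be checked without values per mouse, so the bounds remain conditional. Which mice were low, and of which genotype, cannot be read from a mean over all 6.

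The order of the members depended on the length used. By the longest coding transcript it ran *Cd4*, *Zap70*, *Il7r*, *Nkg7*, *Cd247*, *Cd3e*, *Il2rb* and *Lck*. By the median transcript length *Zap70* came first at a log2 level of 0.47 and *Cd4* was second at 0.09. By coding length, which leaves out the untranslated ends, *Cd247* came first at 1.41 and *Cd4* was second at 1.27. Only the length changed on this scale, and reads from the untranslated ends stayed in the mean log2 CPM. A gene with long untranslated ends therefore moves up, and *Cd247* has a longest transcript of 2957 bases and a coding length of 618. *Cd4* was thus first or second with each length, and the place of *Cd247* moved from rank 5 to rank 1.

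**Figure D2:**
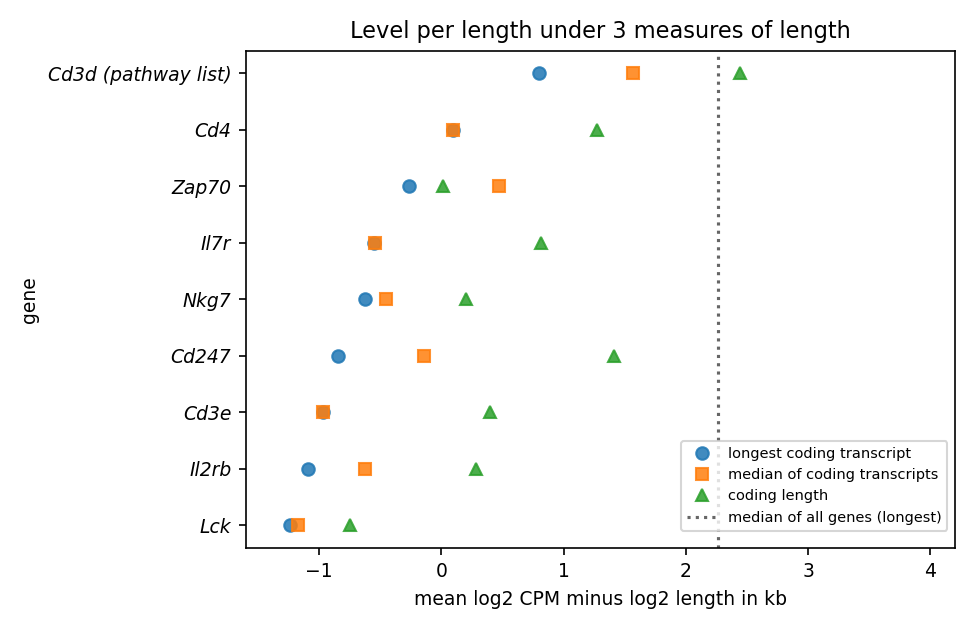
Each row is a gene and each symbol its mean log2 CPM minus log2 length in kb, with the length taken from the longest coding transcript (circles), the median of the coding transcripts (squares) or the coding length (triangles). *Cd3d* lies to the right of every member by the same symbol and *Lck* to the left, while *Cd247* spans from -0.85 to 1.41.

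The other genes of the T and NK cell pathways were given by 7 lists of 69 genes, of which 42 were listed, 14 of them with a mean log2 CPM below 0. The median of the 42 was 0.55 by mean log2 CPM and -0.23 per kb, and 31 lay below the per-kb median of all genes. The members' own medians were 0.81 and -0.74 on these scales. In the receptor complex, 3 of 10 genes were listed, *Cd3d*, *Cd8a* and the adhesion receptor *Cd2* (mean log2 CPM 0.08). The receptor's own constant genes *Trac*, *Trbc1*, *Trbc2* and *Trdc* were not listed, nor was any of the 8 constant genes of T cell receptors that GENCODE annotates. Of 13 immunoglobulin constant genes annotated there, 2 were listed. Of the costimulation and checkpoint genes 3 of 8 were listed, *Tnfrsf4* at a log2 level per kb of 0.18, the receptor *Cd28* at 0.00 and *Cd27* at -1.18, whereas *Icos*, *Ctla4*, *Pdcd1*, *Cd69* and *Tnfrsf9* were not.

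Downstream of *Lck* and *Zap70*, 11 of 16 proximal signalling genes were listed, with a median of 0.90 per kb. The highest log2 levels per kb were those of *Prkcq* at 4.50, *Fyn* at 3.46 and *Plcg1* at 3.16, each of which is also used by cells other than lymphocytes, *Prkcq* in muscle fibres among them. The adaptors *Skap1* and *Grap2*, largely confined to blood cells, stood at -1.09 and -2.31 per kb. *Lat*, the adaptor that ZAP-70 phosphorylates, was not listed, nor were *Txk*, *Ubash3a* and *Themis*. Of the partners of *Il7r* and *Il2rb*, all 7 were listed, from *Il2ra*, the inducible chain of the interleukin 2 receptor, at a log2 level per kb of -1.71 to the signal transducer *Stat5b* at 5.08. The kinase *Jak1* stood at 4.86 per kb. *Il2ra* was the only one of the 7 partners below *Il2rb* per kb, whereas with the coding length it was 0.46 log2 units above *Il2rb*.

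Cytotoxic effectors and NK receptors, the list nearest to *Nkg7*, had 7 of 13 genes listed and a median of -1.50 per kb. Granzyme A (*Gzma*) had the highest log2 level per kb at 0.24, followed by *Klrd1* at -0.34 and the activating receptor *Klrk1* at -0.92. The lowest were *Gzmb* at -1.56, the NK receptor *Ncr1* at -1.90 and *Klrb1c* at -2.38, the last named after its value was seen. *Prf1*, which encodes the pore-forming protein of the granules, was not listed, nor were *Gzmk*, *Fasl*, *Ifng*, *Klra1* and *Xcl1*. Among the lineage transcription factors 6 of 9 were listed, among them *Tcf7* at a log2 level per kb of -0.03 and *Gata3* at -1.15, and the lowest were *Tbx21* at -1.50, *Tox* at -2.43 and *Eomes* at -2.81. *Foxp3*, which defines regulatory T cells, was not listed, nor were *Lef1* and *Bcl11b*. Of the lymphocyte traffic genes 5 of 6 were listed, *S1pr1*, which endothelial cells also express, at a log2 level per kb of 3.17, beside *Ltb* at -0.55, *Cxcr3* at -0.98 and *Ccr7* at -1.49.

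**Figure D3:**
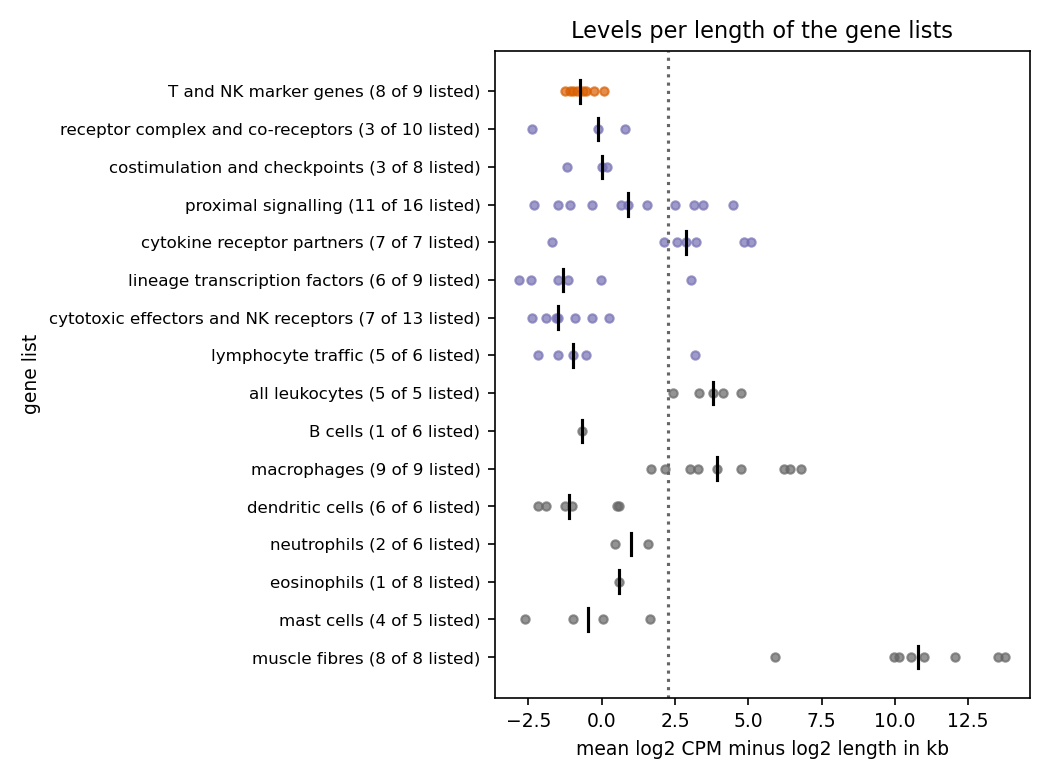
Each point is a listed gene at its mean log2 CPM minus log2 length in kb of the longest coding transcript, each row a gene list with the number listed, each bar the list's median, and the dotted line the median of all genes at 2.26. The 8 members sit between -1.24 and 0.09, left of all genes of the leukocyte, macrophage and muscle fibre lists. They also lie left of the few neutrophil and eosinophil genes listed, 2 of 6 and 1 of 8. The other genes of those 2 lists have no value.

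With each of the 3 lengths, every one of the 8 listed members lay below every gene shared by all leukocytes and every macrophage gene. The leukocyte genes were all listed, 5 of 5, from *Ptprc* at a log2 level per kb of 2.42 to *Laptm5* at 4.77, with a median of 3.79. The macrophage genes were also all listed, 9 of 9, from *Mertk* at a log2 level per kb of 1.68 to *C1qa* at 6.80, with a per-kb median of 3.92 beside -0.74 for the members. Dendritic cell genes were listed 6 of 6 with a per-kb median of -1.13, and mast cell genes 4 of 5 with -0.47. For B cells only *Cd79b* of 6 genes was listed (mean log2 CPM -0.14, and -0.66 per kb). For neutrophils 2 of 6 were listed, *S100a8* at a log2 level per kb of 1.57 and *S100a9* at 0.45. For eosinophils only *Ear2* of 8 was listed (mean log2 CPM 0.13, and 0.61 per kb). With the longest transcript, both listed neutrophil genes and *Ear2* also lay above the highest member, *Cd4* at 0.09. For these genes the median and coding lengths were not compared, and members stood higher by coding length, up to *Cd247* at 1.41. The neutrophil and eosinophil genes that were not listed have no value to compare. No part of any of these cells in a member's value was tested.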

How the data were processed

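Bulk RNA was sequenced from injured quadriceps of 3 WT and 3 ΔdblGATA mice, grouped by the genotype in the labels. Per the study's methods, the authors pseudoaligned paired-end reads with kallisto, used edgeR to obtain CPM, dropped genes that did not exceed 1 CPM in 3 or more samples, then log transformed and TMM-normalized the values. The submitters' notes name the builds GRCm39 and mm39. The deposited table holds log2 values, of which the authors' mean log2 CPM of each gene over all 6 samples was used. The other 5 columns hold the authors' own genotype comparison (fold change, t, p-value, adjusted p-value and log-odds) and were not used. The planned limma fit of the genotypes needs values per sample and was not run, so no result has a test, and differences between genes are descriptions. Depth per sample is unknown, and 6 mice limit the precision of each mean.

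Of 14016 rows, 1 has no symbol. In GENCODE M21 (build GRCm38), 13458 symbols were found as written and 487 as an older name, which gave 99.5% of genes a length. Promoter windows came from RefSeq (GRCm38.p6). Shared sequence is the percent of 31-base words of the longest transcript found in transcripts of other genes. All 9 members were named, of each pathway list at most the 3 highest and 3 lowest by mean log2 CPM, and of the lists of other cells the highest and lowest, with the genes not listed. Some genes of the lists are counted but not reported here by name. *Pou2f1*, *Gm48719* and *Klrb1c* were named after their values or overlap were seen. The members and lists were chosen with earlier results of these data known. Python 3.11.15, pandas 2.3.3, numpy 2.4.6 and matplotlib 3.10.9 were used, and the scripts were tested on simulated data.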

Additional observations from a re-analysis of the deposited data

How the results depend on the processing

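No paired analysis was possible because the values used are means over all 6 mice, and for the same reason no fit leaving out a mouse was run. The main counts and ranks were recomputed under other choices. With a minimum mean log2 CPM of 1, chosen after the data had been seen, 2 of the 8 listed members remained, *Cd4* and *Il7r*. Their median percentile by mean log2 CPM among genes past that minimum was 4.46, beside 13.8 for all 8, and 5.49 per kb beside 13.4. Among protein-coding genes only, the median percentile of the 8 was 12.9. Per length it was 12.0 with the median length of coding transcripts and 13.5 with the coding length. Single percentiles moved for 7 of the 8 members with either of these lengths. Among protein-coding genes only, those by mean log2 CPM moved for all 8, *Cd4* for example from 20.7 to 19.7. A percentile counted as moved where it fell outside a 95% binomial interval around its main value, so small shifts count. As the depth is unknown, no limit of detection can be given for *Cd3g*, and "not listed" is not a level of 0.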
